A study of Mus musculus with 33 samples.

Results

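The genes described here are 10 genes of the Klf2 and S1pr1 axis and of the central T cell state: the transcription factors Foxo1, Klf2 and Klf3, the trafficking receptors S1pr1, S1pr4 and Ccr7, and the transcriptional regulators Tcf7, Lef1, Satb1 and Bach2. They were picked by name, as the rows of the count table whose Ensembl identifiers carry these symbols, and they make up 10 of 53465 genes in the table. The choice was made with earlier results of these data known. RNA was sequenced from sorted regulatory T cells (Treg, CD4+ cells that express Foxp3 and restrain immune responses) of the mouse colon. The series asks how the epithelial cytokines TSLP and IL-33, through their receptors TSLPR (gene Crlf2) and ST2 (gene Il1rl1), relate to Treg in colorectal cancer. All mice carried a Foxp3-yfp reporter on a C57BL/6 background. The naive mice (mice 1 to 4) were set against mice with colitis-associated cancer (mice 5 to 8), which had received the colon carcinogen azoxymethane (AOM, 10 mg/kg) and then 3 cycles with DSS (dextran sulfate sodium, which injures the colon epithelium) in the drinking water for 7 days each. They were killed 2 weeks after the last DSS. CD45+ TCR+ CD4+ Foxp3+ cells of each of the 8 mice were sorted into 4 gates, the double-negative TSLPR-ST2-, the single-positive TSLPR-ST2+, its counterpart TSLPR+ST2- and the double-positive TSLPR+ST2+. This gave 8 groups of 4 libraries, 1 from each mouse and gate, at 200 cells per library. In addition there was 1 library of naive CD44low CD4+ T cells without Foxp3, for which the labels name no mouse. Neither agent was given by itself to any group, so tumours, recent colitis and the chemicals cannot be told apart.

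KLF2 is a zinc-finger factor of quiescent T cells that FOXO1 switches on and that in turn drives the gene for S1PR1, the receptor that lets lymphocytes follow sphingosine-1-phosphate out of tissues into lymph and blood. T cell receptor and cytokine signals through PI3K and AKT keep FOXO1 out of the nucleus, and CD69 pulls S1PR1 off the cell surface, so both restrain exit and favour residence in tissue. CCR7 guides cells into lymph nodes, and TCF1 (gene Tcf7), LEF1, SATB1 and BACH2 are regulators of naive, central and resting T cell states.

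The promoter of Klf2 is shown first because Klf2 is the gene with the smallest p value of the 10 in the comparison of gates, and that of Lef1 because it carries a match to the motif bound by KLF factors. Both come from RefSeq on the build GRCm38.p6, whose promoter table has entries for 8 of the 10 genes (for S1pr1 and Ccr7 none was used). The sequence of Klf2 covers 220 bases (chr8:72318812-72319031, + strand) and ends 31 bases upstream of the RefSeq start. Its capitals mark a MEF2-type match, which reads the same on both strands.
Klf2: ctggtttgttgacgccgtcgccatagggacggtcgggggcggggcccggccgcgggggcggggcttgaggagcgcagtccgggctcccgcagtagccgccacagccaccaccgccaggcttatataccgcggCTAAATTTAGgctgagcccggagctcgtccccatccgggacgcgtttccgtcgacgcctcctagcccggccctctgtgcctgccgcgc
The sequence of Lef1 covers 250 bases (chr3:131110047-131110296, + strand) up to 1 base before its first RefSeq start, and its capitals mark a match to the KLF motif CCNCACCC, which does not overlap the GC box of that window.
Lef1: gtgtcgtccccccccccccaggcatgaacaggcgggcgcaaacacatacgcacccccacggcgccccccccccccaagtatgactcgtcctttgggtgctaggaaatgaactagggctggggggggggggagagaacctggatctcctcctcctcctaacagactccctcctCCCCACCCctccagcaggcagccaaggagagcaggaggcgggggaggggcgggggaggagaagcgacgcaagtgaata
Searched on both strands of the 250 bases upstream of all 32851 promoter entries, the MEF2-type motif was found in 2.92%, CCNCACCC in 14.86%, the TCF/LEF motif CTTTGA in 13.83% and the FOXO motif GTAAACA in 3.17%. Of the 8 genes with entries, 1 held a MEF2-type match (Klf2), 4 held CCNCACCC (Klf3, Tcf7, Lef1 and Satb1), 2 held CTTTGA (Lef1 and Bach2) and 0 held GTAAACA in any of their windows. The GC box GGGGCGGGG was in 10.38% of all windows and occurred at 2 places in the Klf2 window. Several genes have more than 1 window, which raises the chance of a match, and a match describes letters only.

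The libraries held 4038718 to 8839946 counts (median 6458270). The sorted receptors followed the gates over all mice, with Il1rl1 at 181 against 2.38 CPM (counts relative to the scaled total of the library) in ST2+ and ST2- libraries and Crlf2 at 40.4 against 15.8 CPM in TSLPR+ and TSLPR- libraries. In mouse 5, however, Crlf2 was higher in the TSLPR-ST2+ library than in the TSLPR+ST2+ library (30.5 against 25.2 CPM). The TSLPR+ST2+ library of cancer mouse 7 stood apart, with 2725 CPM in 6 epithelial markers together. Results of the 10 genes that rest on these libraries are given with and without them. Leaving out that of mouse 7 was not planned beforehand. Markers of other cells moved with the gates: among TSLPR+ libraries 5 of 6 B and plasma cell markers, 7 of 8 macrophage and dendritic markers and 2 of 6 epithelial markers were higher, with summed levels of 39.2 to 823, 137 to 2175 and 29.3 to 2725 CPM against 31.5 to 126, 2.06 to 2617 and 10.7 to 75.2 CPM in TSLPR- libraries. Of all genes tested 7.97% were called higher and 5.46% lower for TSLPR. For ST2 these shares were 3.7% and 2.33%. In ST2+ libraries 7 of 8 macrophage and dendritic markers and 1 of 6 epithelial markers were higher (309 to 2617 and 10.7 to 2725 against 2.06 to 1139 and 12.7 to 92.6 CPM), and 0 of 6 B and plasma cell markers passed. Of 7 T cell and Treg markers 4 were higher and 0 lower in TSLPR+ libraries, and 1 was higher and 3 were lower in ST2+ libraries (of these Cd3e lost its TSLPR call with the mitochondrial share as a covariate, adjusted p = 0.118, and its ST2 call without the library of mouse 7, adjusted p = 0.0529). Foxp3 itself was at 162 CPM in TSLPR- and 130.4 CPM in TSLPR+ libraries (lower in 8 of 8 mice, edgeR adjusted p = 0.0622), and at 166 CPM in ST2- and 127 CPM in ST2+ libraries (lower in 8 of 8 mice, edgeR adjusted p = 0.0240). Of 8 endothelial markers, whose cells also express Klf2 and S1pr1, Pecam1, which T cells express as well, was lower in TSLPR+ (log2 difference -0.66) and in ST2+ libraries (-0.46), and the other 7 (Cdh5, Kdr, Tie1, Egfl7, Emcn, Cldn5 and Vwf) had means of 0.0410 to 0.569 CPM over the 32 libraries. Of 5 markers of CD8 and NK cells 3 were tested, and 0 of these passed for either receptor. Of the 6 epithelial markers 4 were tested. None of the listed markers was at 0 in all libraries. Beyond that their part in the results was not tested.

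All 10 genes were expressed in every Treg library. Per exon length and depth (RPKM, the CPM per kilobase of exon, mean of 32 Treg libraries), Ccr7 stood highest at 366, followed by S1pr1 at 214, Klf2 at 208 and Tcf7 at 198. A lower tier held Lef1 (40.7 RPKM), Foxo1 (37.8), Klf3 (29.4), S1pr4 (25.9) and Satb1 (22.9), and Bach2 was lowest at 7.70 RPKM. The order rests on exons of all isoforms, which counts long untranslated exons against genes such as Satb1 and Klf3. All other levels below are CPM, which compare libraries and not genes. Exons of Klf3, Lef1, Satb1, Bach2 and Foxo1 overlap those of other annotated genes, mostly on the opposite strand (among them Gm20033, Gm43352, Gm6934, Bach2os and Gm20402). The strand used in counting is not stated, so reads of such a pair cannot be told apart and the values of these 5 genes are uncertain to that extent.

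**Figure D1:**
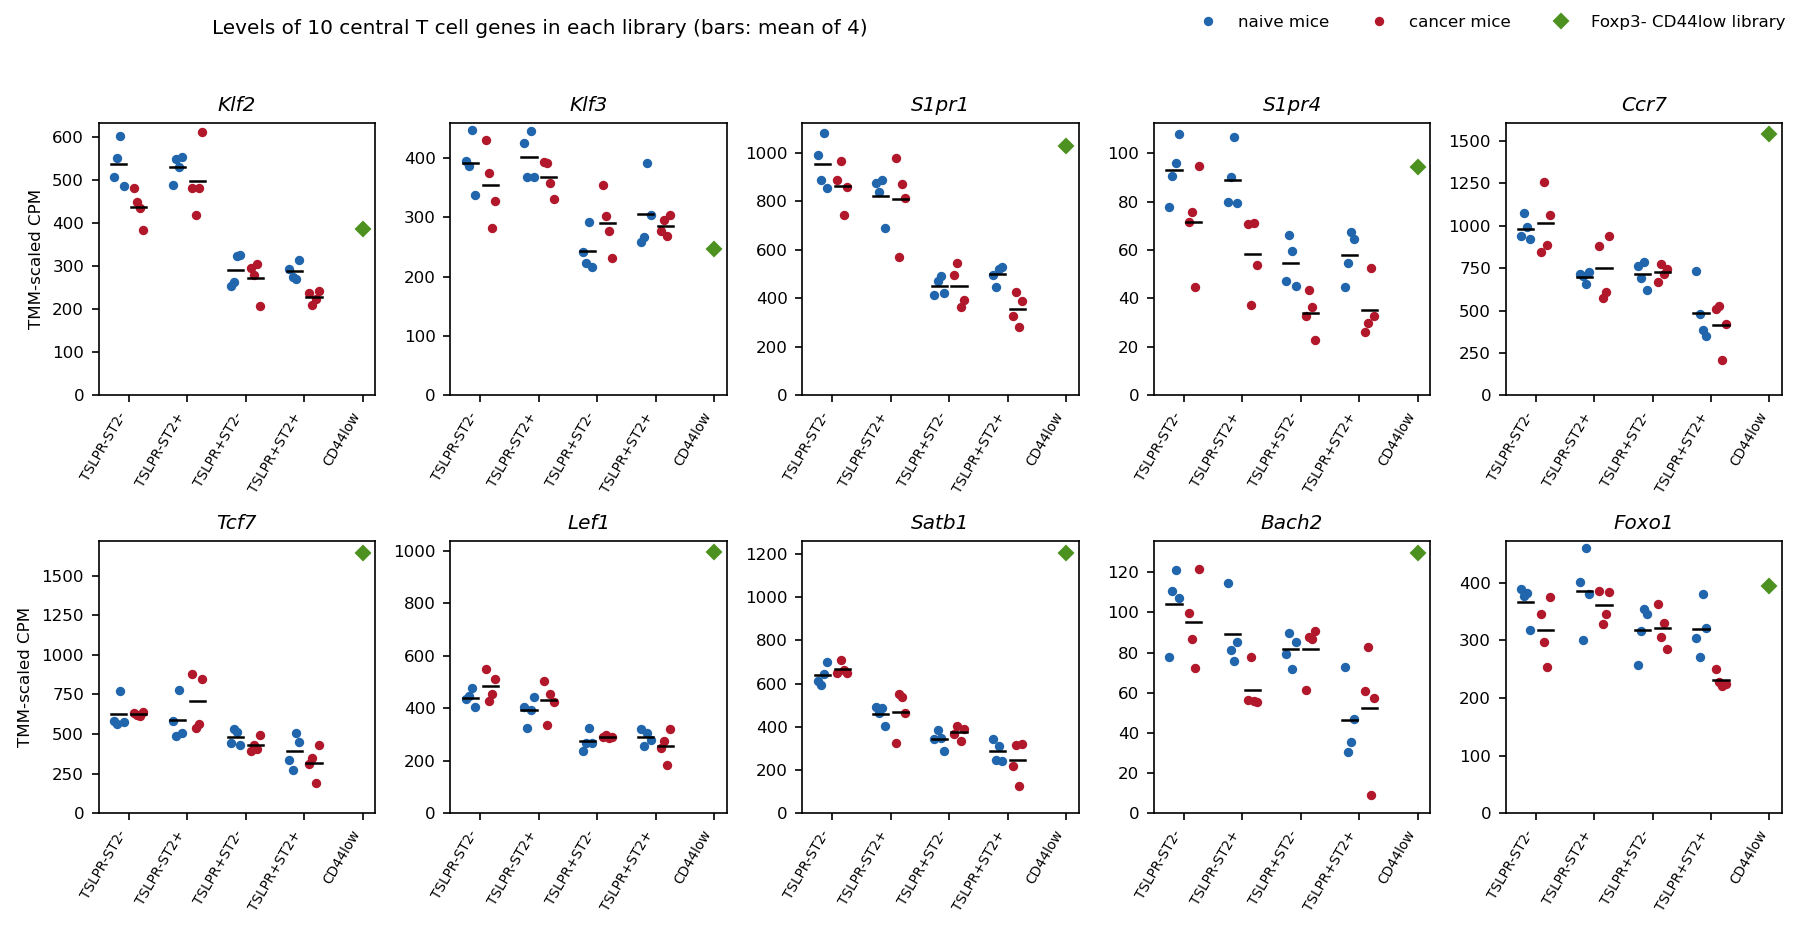
Level of each of the 10 genes (TMM-scaled CPM, linear axes from 0, 1 panel per gene) in the 32 Treg libraries by gate (blue, naive mice; red, cancer mice), with the naive CD44low Foxp3- library as a green diamond; each point is 1 library and the bars are means of 4. Klf2, S1pr1 and Lef1 separate the TSLPR+ from the TSLPR- libraries without overlap, and Tcf7, Ccr7, Satb1, Lef1 and Bach2 are highest in the CD44low library. The shares of all genes with these patterns were not counted.

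Of the comparisons of gates and of status, that of TSLPR+ with TSLPR- Treg called the most of these genes. By edgeR's quasi-likelihood test with adjustment over all 14861 genes tested, 9 of the 10 were lower in TSLPR+ Treg and 0 were higher, against a background of 5.46% of all genes lower and 7.97% higher. Since the 10 were chosen with earlier results of these data known, setting them beside the background is description and not a test. The median log2 difference of the 10 was -0.66, beside 0.00688 over all genes tested. In these bulk libraries fewer cells of a type and less RNA per cell cannot be told apart. Each of the 9 was lower in the mean of the TSLPR+ gates in 8 of 8 mice. For TSLPR and ST2, the shares of all genes lower in every mouse or pair, or without overlap of libraries, were not counted. Such counts and separations, here and below, are therefore description only.

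Among the factors, Klf2 (chromosome 8, 72319033 to 72321656, + strand) had the smallest p. The TSLPR- libraries held 385 (lowest), 487 (median) and 611 (highest) CPM and the TSLPR+ libraries 208 (lowest), 272 (median) and 325 (highest) CPM. The lowest TSLPR- library thus stood above the highest TSLPR+ library, which is description only. The means were 500.0 ± 63.1 and 269.6 ± 38.5 CPM (SD, n = 16 libraries each), a fold of 1.86 (log2 difference -0.89 ± 0.06 SE, edgeR adjusted p = 1.11e-11), and only 1 of the 14861 genes had a smaller p. Klf3, a related and mostly repressive KLF factor, (chromosome 5, 64803388 to 64832901, + strand) ran at 283 to 448 CPM in TSLPR- and 217 to 391 CPM in TSLPR+ libraries. Its ranges overlapped, yet it was lower in 16 of 16 pairs of gates that share the mouse and the ST2 status (1.35-fold, log2 difference -0.43, edgeR adjusted p = 6.12e-05). Foxo1 (chromosome 3, 52268336 to 52353221, + strand), the activator upstream of Klf2, differed least of the 9, with 254 to 460.0 CPM against 221 to 380.1 CPM. Its ranges overlapped widely, it was lower in 12 of 16 such pairs, and the fold was 1.21 (edgeR adjusted p = 0.00373).

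Among the receptors, S1pr1 (chromosome 3, 115710433 to 115715072, - strand) showed the largest fold of the 10 genes. Its TSLPR- libraries held 568 (lowest), 872 (median) and 1082 (highest) CPM and its TSLPR+ libraries 283 (lowest), 435 (median) and 546 (highest) CPM, with no overlap. The means of 862 ± 122 and 439 ± 75.6 CPM (SD, n = 16 each) gave 1.98-fold lower levels (log2 difference -0.98 ± 0.07 SE, edgeR adjusted p = 7.58e-11). S1pr4, another sphingosine-1-phosphate receptor of lymphocytes (chromosome 10, 81497747 to 81500132, - strand), held 37.4 (lowest), 78.6 (median) and 108 (highest) CPM in TSLPR- and 22.8 (lowest), 44.9 (median) and 67.5 (highest) CPM in TSLPR+ libraries. The ranges overlapped over all libraries and within cancer mice, but not within naive mice. S1pr4 was 1.74-fold lower in TSLPR+ Treg (edgeR adjusted p = 3.26e-05) and lower in 16 of 16 pairs. Ccr7 (chromosome 11, 99144196 to 99155077, - strand) held 575 (lowest), 885 (median) and 1259.5 (highest) CPM in TSLPR- and 209 (lowest), 646 (median) and 785 (highest) CPM in TSLPR+ libraries. These ranges overlapped, and Ccr7 was 1.49-fold lower (edgeR adjusted p = 0.000279), in 15 of 16 pairs.

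Of the regulators of the central state, Satb1, Tcf7 and Lef1 were lower and Bach2 did not pass. Satb1, a chromatin organizer (chromosome 17, 51736187 to 51833290, - strand), held 327 (lowest), 572 (median) and 709 (highest) CPM in TSLPR- and 124 (lowest), 327 (median) and 403 (highest) CPM in TSLPR+ libraries and was 1.79-fold lower in the latter (edgeR adjusted p = 1.88e-07). Tcf7, which encodes TCF1 (chromosome 11, 52252371 to 52283014, - strand), held 486 (lowest), 598 (median) and 880.1 (highest) CPM against 189 (lowest), 432 (median) and 533 (highest) CPM and was 1.58-fold lower (edgeR adjusted p = 2.96e-05). Both had overlapping ranges, but each was lower in 16 of 16 pairs. Lef1, the partner factor of TCF1 (chromosome 3, 131110471 to 131224356, + strand), held 325 (lowest), 438 (median) and 548 (highest) CPM against 182 (lowest), 283 (median) and 324 (highest) CPM. The lowest TSLPR- and the highest TSLPR+ library of Lef1 lay side by side without crossing, the means were 437 ± 58.4 and 278 ± 36.4 CPM, and the fold was 1.57 (edgeR adjusted p = 7.18e-08). Bach2, a repressor that restrains effector differentiation (chromosome 4, 32238804 to 32586108, + strand), did not pass. It ran at 55.4 to 121 CPM in TSLPR- and 8.85 to 90.9 CPM in TSLPR+ libraries (log2 difference -0.43 ± 0.17 SE, edgeR adjusted p = 0.0925). Its lowest value, 8.85 CPM, came from the library of mouse 7 that stood apart. Without that library, an exclusion that was not planned beforehand, Bach2 passed as well (-0.34, edgeR adjusted p = 0.0460). Over 17 alternative settings Bach2 was called in 3, and its adjusted p ran from 0.0223 to 0.238. The other 9 genes were called in all 17.

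**Figure D2:**
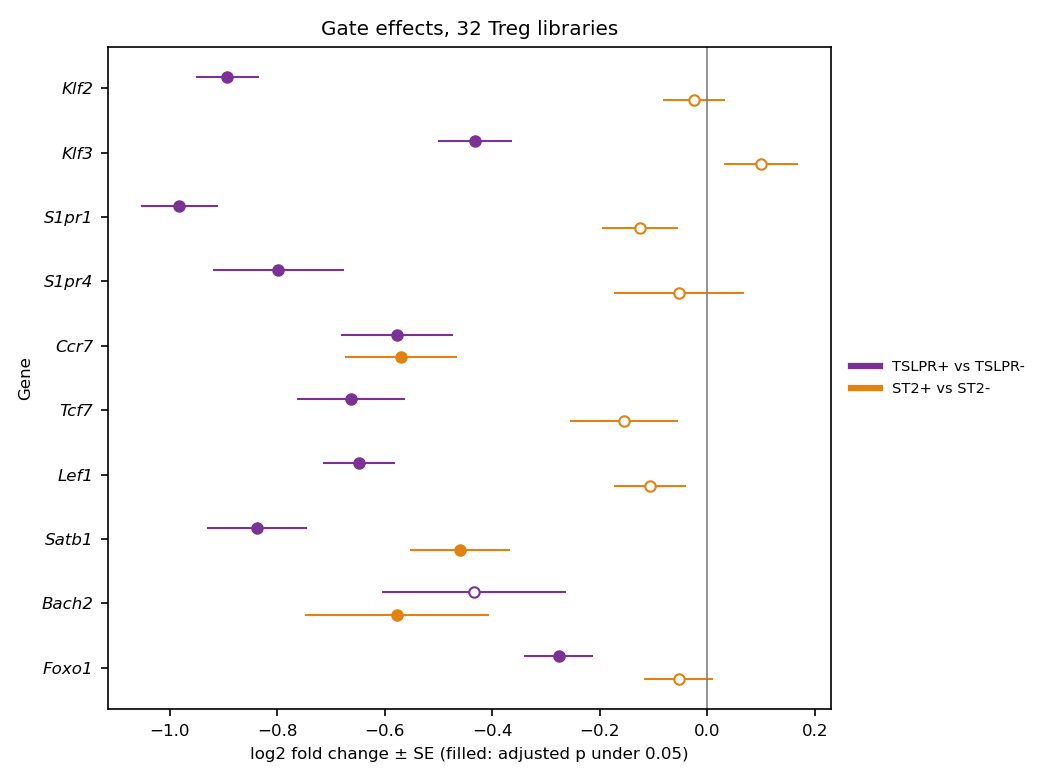
Log2 difference of each of the 10 genes between TSLPR+ and TSLPR- Treg and between ST2+ and ST2- Treg, with standard errors from edgeR; filled points passed an adjusted p of 0.05. For TSLPR the points of 9 genes are filled and lie between -0.98 and -0.28; for ST2 only Ccr7, Satb1 and Bach2 are filled, at -0.57, -0.46 and -0.58.

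ST2 split the genes another way. Between ST2+ and ST2- Treg 3 of the 10 were lower (background 2.33% of all genes lower, 3.7% higher) and 0 higher, with a median log2 difference of -0.12 beside -0.00497 over all genes. Ccr7 held 623 (lowest), 815 (median) and 1259.5 (highest) CPM in ST2- and 209 (lowest), 591 (median) and 939 (highest) CPM in ST2+ libraries and was lower in 8 of 8 mice (means 859.7 and 589 CPM, log2 difference -0.57 ± 0.10 SE, edgeR adjusted p = 0.000783). Satb1 held 289 (lowest), 498 (median) and 709 (highest) CPM against 124 (lowest), 335 (median) and 551 (highest) CPM and was also lower in 8 of 8 mice (log2 difference -0.46 ± 0.09 SE, edgeR adjusted p = 0.00204). Bach2 held 61.4 (lowest), 87.3 (median) and 121 (highest) CPM against 8.85 (lowest), 59.1 (median) and 115 (highest) CPM and was lower in 7 of 8 mice (log2 difference -0.58 ± 0.17 SE, edgeR adjusted p = 0.0397). The ranges of all 3 overlapped between ST2- and ST2+ libraries. The call for Bach2 was lost when mouse 2, 3, 4, 5 or 8 was left out and when both ST2+ libraries of mouse 5 were left out (adjusted p = 0.0577 to 0.153), and over all 17 settings its adjusted p ran from 0.00683 to 0.153. Klf2 averaged 384 ± 119 CPM in ST2- and 386 ± 140.3 CPM in ST2+ libraries (log2 difference -0.02 ± 0.06 SE, averaged over groups on the log scale, so its sign can differ from that of the means, adjusted p = 0.907), and S1pr1 679.5 and 621 CPM (log2 difference -0.13 ± 0.07 SE, adjusted p = 0.345). The other 5 genes had log2 differences between -0.16 and 0.10 for ST2 and did not pass.

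Whether the TSLPR difference exceeded the ST2 difference was tested with the single-positive gates, TSLPR+ST2- against TSLPR-ST2+, a contrast that equals the TSLPR effect minus the ST2 effect and was chosen after the data had been seen. In it 6 of the 10 genes were lower in the TSLPR+ST2- gate (background 1.27% of all genes lower, 1.4% higher), with a median log2 difference of -0.52 beside 0.02 over all genes. Klf2 averaged 281 ± 39.5 CPM in TSLPR+ST2- and 514 ± 59.3 CPM in TSLPR-ST2+ libraries (SD, n = 8 each, lower in 8 of 8 mice, log2 difference -0.87, edgeR adjusted p = 9.81e-08). S1pr1 averaged 450.1 ± 61.5 and 815 ± 128 CPM (lower in 8 of 8 mice, log2 difference -0.86, edgeR adjusted p = 5.32e-06). Lef1 (-0.54, adjusted p = 0.00107), Klf3 (-0.53, 0.00168), S1pr4 (-0.75, 0.0132) and Tcf7 (-0.51, 0.0468) were lower too. The calls for S1pr4 and Tcf7 were lost when mouse 1, 3, 4, 5 or 8 was left out, and that for Tcf7 also in 4 other settings; over 17 settings the adjusted p ran from 0.00179 to 0.0690 for S1pr4 and from 0.00968 to 0.190 for Tcf7. Ccr7 was at 721 ± 56.2 and 725 ± 127 CPM in these gates (log2 difference -0.01 ± 0.15 SE, adjusted p = 1.000), and Bach2 at 81.7 ± 10.3 and 75.3 ± 20.1 CPM (adjusted p = 0.851). Satb1 lay between, at 358 ± 37.1 and 465 ± 72.2 CPM (log2 difference -0.38, adjusted p = 0.113), and passed without the TSLPR+ST2+ library of mouse 7 (adjusted p = 0.0274; over 17 settings 0.0274 to 0.249). For Foxo1 the log2 difference was -0.22 (adjusted p = 0.191).

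The 8 groups showed these patterns gate by gate, given here as mean CPM ± SD (n = 4) for the double-negative, the ST2 single-positive, the TSLPR single-positive and the double-positive gate in this order. Klf2 was at 536 ± 51.0, 529.7 ± 30.0, 292 ± 38.3 and 288 ± 20.1 in naive mice and at 437 ± 40.0, 498 ± 81.3, 271 ± 43.6 and 228 ± 14.6 in cancer mice. S1pr1 was at 954 ± 102, 823 ± 89.9, 450.3 ± 38.9 and 498 ± 38.5 in naive mice and at 864 ± 91.7, 808 ± 174, 450.0 ± 85.5 and 355.9 ± 64.0 in cancer mice. For both genes the 4 TSLPR- groups stood above the 4 TSLPR+ groups with no overlap of libraries, while each group overlapped its neighbour in the order of means within either set. Ccr7 instead was graded, at 982 ± 68.0, 699 ± 31.7, 716 ± 72.9 and 488 ± 172 in naive mice and at 1015 ± 189, 751 ± 186, 726 ± 44.4 and 416 ± 145 in cancer mice. Its TSLPR-ST2+ and TSLPR+ST2- libraries overlapped, with the double-negative gate above and the double-positive gate below in the means. Satb1 followed with 638 ± 47.7, 461 ± 40.6, 342 ± 40.2 and 286 ± 49.6 in naive mice and 668 ± 28.9, 469 ± 102, 374 ± 30.2 and 246 ± 93.4 in cancer mice, and here all TSLPR-ST2- libraries lay above all libraries of the other gates. The shares of all genes whose libraries separate in these ways were not counted. The interaction of ST2 with TSLPR passed for 0 of the 10 genes (background 0%), and 1 had an unadjusted p under 0.05, Foxo1 (log2 -0.37 ± 0.13 SE, unadjusted p = 0.00807). DESeq2 also called 0 of the 10 here, with 103 calls among all genes.

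Between cancer and naive mice fewer of these genes were called. With the 4 gates of a mouse summed, 0 of the 10 passed (background 1.21% of 15338 genes called by edgeR), and 2 had an unadjusted p under 0.05, S1pr4 and Klf2. S1pr4 was at 62.9, 74.2, 84.1 and 73.4 CPM in naive mice 1 to 4 and at 53.2, 48.3, 51.4 and 51.5 CPM in cancer mice 5 to 8. Every cancer mouse was thus below every naive mouse, though the share of all genes that separate in this way was not counted. The means were 73.6 ± 8.67 and 51.1 ± 2.05 CPM (SD, n = 4 mice each), and the log2 difference of -0.53 ± 0.11 SE missed the limit (edgeR adjusted p = 0.0512). It passed with DESeq2 (adjusted p = 0.000377) and as the mean of the 4 gate contrasts (log2 -0.60, edgeR adjusted p = 0.00235). That mean counts the 4 gates of a mouse as separate replicates of its status, so its p does not rest on mice as replicates. By gate the log2 difference of S1pr4 was -0.38 in double-negative, -0.61 in ST2 single-positive, -0.68 in TSLPR single-positive and -0.71 in double-positive Treg, negative in all 4 and passing in 0 of them. Over 14 alternative settings the adjusted p of S1pr4 per mouse ran from 0.000377 to 0.784, with 2 settings below the limit. Klf2 was at 389, 402, 434 and 413 CPM in naive mice and at 389.6, 345, 372 and 371 CPM in cancer mice. These values overlapped in mouse 5 and mouse 1, and Klf2 did not pass (log2 -0.15, edgeR adjusted p = 0.231). It passed only as the mean of the gate contrasts, again with gates as separate replicates (log2 -0.21, edgeR adjusted p = 0.0254). Over 14 settings its adjusted p ran from 0.0254 to 0.983. The other 8 genes had log2 differences between -0.16 and 0.11. Other measures moved with status as well. All 14 immediate early genes tested in the sums, which tissue dissociation can induce, had estimates below 0 in cancer mice (median log2 difference -0.62 beside 0.01 over all genes, 2 called lower), among them Junb at 775, 735, 752 and 741 CPM in naive and 361, 437, 369.6 and 411 CPM in cancer mice. The mitochondrial share of the libraries was 0.616 to 1.28% in naive and 0.958 to 3.23% in cancer mice. In the sums per mouse that share was higher in every cancer mouse than in every naive mouse. A covariate therefore cannot tell the share apart from status. With it in the model the log2 difference of S1pr4 was -0.23 (edgeR adjusted p = 0.784). The calls over all genes in the sums fell from 186 to 0. The part of the immediate early genes was not tested.

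Within gates the cancer difference passed for 0 of the 10 genes in TSLPR-ST2-, TSLPR-ST2+ and TSLPR+ST2- Treg (background 0.209%, 0.202% and 0.0471% of all genes) and for 2 in TSLPR+ST2+ Treg, both lower (background 2.5% lower, 1.66% higher). The median log2 difference of the 10 in that gate was -0.26, beside 0.05 over all genes. S1pr1 was at 495, 445, 522 and 531 CPM in naive mice 1 to 4 and at 326, 425, 283 and 390.1 CPM in cancer mice 5 to 8. Every cancer library was below every naive one (log2 difference -0.48 ± 0.14 SE, edgeR adjusted p = 0.0491). Foxo1 was at 303, 272, 380.1 and 321 CPM in naive and at 249, 227, 221 and 223 CPM in cancer mice, again without overlap (log2 difference -0.47 ± 0.13 SE, edgeR adjusted p = 0.0368). Klf2, at 293, 274, 271 and 314 CPM in naive and 238, 209, 223 and 241 CPM in cancer mice, did not overlap either and did not pass (log2 difference -0.34, adjusted p = 0.0921). The share of all genes without overlap in this gate was not counted, so the separation is description only. Klf2 was called in 1 of 17 alternative settings, without mouse 8 (log2 -0.37, adjusted p = 0.0317; over the 17 0.0317 to 0.908). Depth and RNA measures moved with this contrast: the cancer libraries of the gate held 4038718 to 5816224 counts against 6607867 to 8839946 in the naive ones, the share of mitochondrial counts was 1.43 to 3.23% against 0.618 to 1.24%, and the macrophage and dendritic markers summed to 381 to 766 against 1373 to 2175 CPM. Of 7 T cell and Treg markers Foxp3 (-0.77) and Il2ra (-0.68) were lower and Ikzf2 (0.64) was higher, and of 6 epithelial markers Krt8 (6.51) and Krt20 (6.72) were higher. Without the library of mouse 7 neither Krt8 (1.76, adjusted p = 0.587) nor Krt20 (2.02, 0.660) nor Foxp3 (-0.80, 0.0756) passed. The part of the markers was not tested. The mitochondrial shares of cancer and naive libraries did not overlap in this gate, so a covariate cannot tell that share apart from status. With it in the model the calls over all genes fell from 618 to 4, and neither S1pr1 nor Foxo1 passed. The log2 differences were then -0.02 for S1pr1 and -0.11 for Foxo1. After thinning all libraries to 4038718 counts both still passed. Without the TSLPR+ST2+ library of mouse 7 neither S1pr1 (log2 -0.39, adjusted p = 0.159) nor Foxo1 (log2 -0.46, adjusted p = 0.0856) passed and S1pr4 did (log2 -0.97, adjusted p = 0.0376). Over 17 alternative settings S1pr1 was called in 3 (adjusted p from 0.0116 to 0.998), Foxo1 in 6 (from 0.0186 to 0.946) and S1pr4 in 2 (from 0.0280 to 0.943). The S1pr4 values there were 44.8, 54.7, 67.5 and 64.5 CPM in naive and 26.2, 29.9, 52.7 and 32.8 CPM in cancer mice, and the library of mouse 7 was the highest of the cancer ones. A dependence of the gate differences on status was not detected: the TSLPR by cancer and ST2 by cancer interactions passed for 0 of the 10 genes each. The background was 0% of all 14861 genes in each, so these counts do not set the 10 genes apart. Of the 10, 0 had an unadjusted p under 0.05 in each in this fit, and DESeq2 called 0. With the mouse as a block in edgeR 2 had an unadjusted p under 0.05 for TSLPR by cancer and 0 were called. Without mouse 2 there was 1 for ST2 by cancer, with 0 called.

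**Figure D3:**
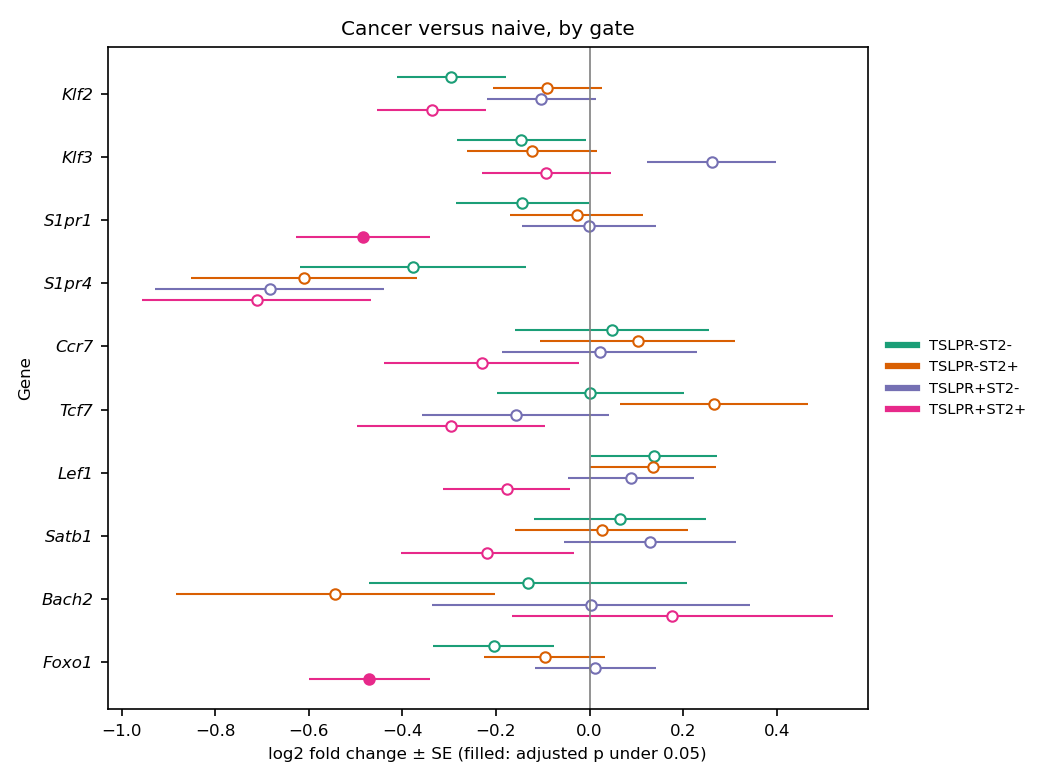
Log2 difference between cancer and naive mice for each of the 10 genes in each gate (4 libraries against 4), with standard errors from edgeR; filled points passed an adjusted p of 0.05. Only S1pr1 (-0.48) and Foxo1 (-0.47) in the TSLPR+ST2+ gate are filled, and S1pr4 lies below 0 in all 4 gates, at -0.38 to -0.71.

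Other genes of the same pathways were read from lists, whose counts stand beside the shares of all genes given above (for TSLPR 5.46% lower and 7.97% higher, for ST2 2.33% lower and 3.7% higher). The lists too were chosen with earlier results of these data known, so their counts are description and not a test. Of 17 other naive and central T cell genes tested, 10 were lower and 0 higher in TSLPR+ Treg. Among them were Ly6c1 (log2 difference -1.48, edgeR adjusted p = 3.45e-10), the IL-6 receptor gene Il6ra (-0.94) and the survival gene Bcl2 (-0.91). In ST2+ Treg 6 of these 17 were lower, among them Bcl2 (-1.05), Ly6c1 (-0.86) and Foxp1 (-0.34), and Il7r, the IL-7 receptor gene, was higher (0.74). Of 13 effector and tissue-retention genes 9 were higher in TSLPR+ Treg and 0 lower, including Id2 (1.21), Batf (0.71), Ccr8 (2.36) and Itgae (0.81), the gene for the integrin CD103 that binds epithelial E-cadherin. In ST2+ Treg 4 were higher, Klrg1 (4.61), Id2 (1.07), Itgae (1.15) and Gata3 (0.81).

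The sphingosine-1-phosphate genes beyond S1pr1 and S1pr4 mostly did not pass. Of 11 tested, 1 was lower in TSLPR+ Treg, the phosphatase gene Sgpp1 (-0.55, adjusted p = 0.00416), and 0 passed for ST2. Cd69, the antagonist of S1PR1, averaged 309 ± 58.5 CPM in TSLPR- and 287 ± 48.9 CPM in TSLPR+ libraries and did not pass (log2 difference -0.10 ± 0.08 SE, adjusted p = 0.506). Rgs1, which damps signals of such receptors, averaged 557 and 551 CPM. Of 10 other KLF genes tested, Klf13 (-0.38) and Klf7 (-0.56) were lower and Klf10 (0.75) higher in TSLPR+ Treg, and Klf5 was higher in ST2+ Treg (4.83). Klf5 was nearly absent, with means of 0.0513 CPM in ST2- and 3.51 CPM in ST2+ libraries, and its highest value (43.4 CPM) came from the set-apart library of mouse 7. Without that library its log2 difference was 4.20 (edgeR adjusted p = 0.0455), and with the share of mitochondrial counts as a covariate the call was lost (log2 3.78, adjusted p = 0.0623). Of 15 genes of FOXO1 control tested, 7 were lower and 0 higher in TSLPR+ Treg. They included Pik3ip1 (-0.67), which inhibits PI3K, but also the PI3K subunit genes Pik3cd (-0.53) and Pik3r1 (-0.28) and the MAP kinase gene Mapk7 (-0.55), whose product ERK5 activates Klf2 through MEF2. In ST2+ Treg Sgk1, a kinase that phosphorylates FOXO proteins, was higher (1.23) and Pik3r1 lower (-0.26). Of 13 TCF/LEF and Wnt genes tested, 2 were lower in TSLPR+ Treg, Bcl9l (-0.71) and Gsk3b (-0.38), and 0 higher. Immediate early genes, which tissue dissociation can induce, were mixed, with Dusp1 higher (0.62) and Ier2 (-0.28) and Jun (-0.52) lower among 15 tested. With the mitochondrial share as a covariate the TSLPR calls for Mapk7, Gsk3b, Ier2 and Jun were lost (adjusted p = 0.0599, 0.0679, 0.0970 and 0.132). The count of FOXO1 control genes lower in TSLPR+ Treg then fell from 7 to 3 (to 5 without the library of mouse 7), and those of immediate early genes were 2 higher and 0 lower. In TSLPR+ST2+ Treg of cancer mice S1pr1 and Foxo1 passed, with a background of 2.5% of all genes lower and 1.66% higher. In that contrast 2 of 17 naive and central genes were lower, among them Il6ra (-1.05), and 1 was higher, Il7r (0.62). There 3 of 15 FOXO1 control genes were lower, Akt2 (-1.21), Mef2d (-0.81) and Pik3cd (-0.72), as were 2 of 15 immediate early genes, Junb (-1.07) and Zfp36 (-0.82). Without the library of mouse 7 the calls for Il7r (adjusted p = 0.0619) and Pik3cd (0.145) were lost, and with the mitochondrial share as a covariate 0 of these calls were left.

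Klf2 and S1pr1 were set against each other across libraries. The 32 libraries form 2 clusters, 1 for each TSLPR state, so no pooled correlation is given for the pair. Within the clusters Pearson's r of log2 CPM was 0.302 in the 16 TSLPR- and 0.546 in the 16 TSLPR+ libraries. Libraries of a mouse and gate share depth and makeup, so these are descriptions. Over the 32 libraries, with the gap between the clusters included and out of 8411 genes with a mean of 10 CPM or more, the profiles most like Klf2 included those of Tsc22d3 (r = 0.906), Itga6 (0.876), Ripor2 (0.872) and Evl (0.854). Those most like S1pr1 included Ripor2 (r = 0.927), Tsc22d3 (0.891), Evl (0.889) and Stk38 (0.888). Within the TSLPR- and TSLPR+ libraries the likenesses named were weaker, for Tsc22d3 with Klf2 0.627 and 0.399, for Itga6 with Klf2 0.381 and 0.517, for Ripor2 with Klf2 0.0682 and 0.645, and for Ripor2 with S1pr1 0.579 and 0.757.

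**Figure D4:**
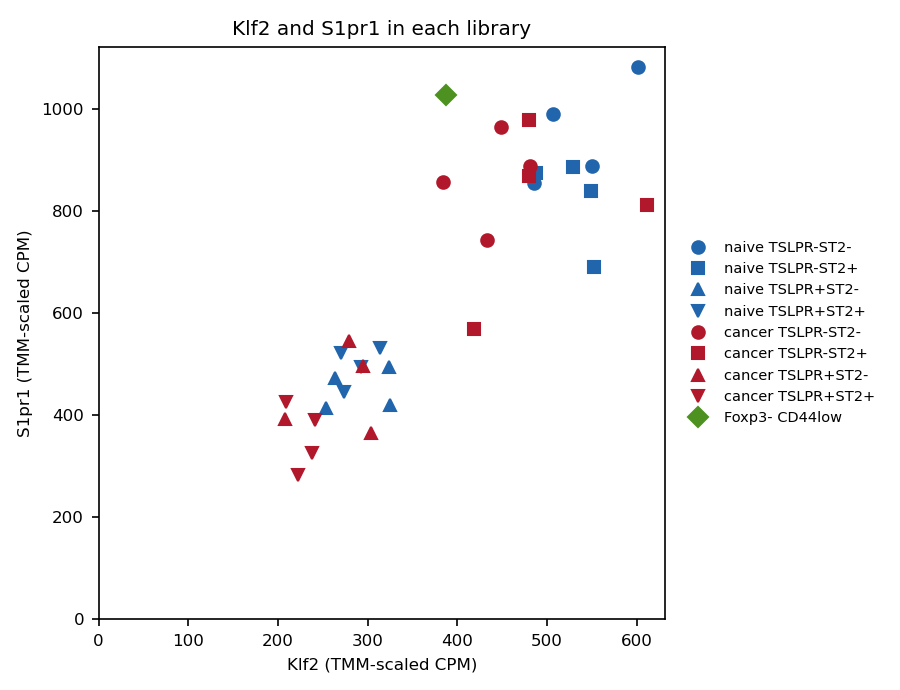
S1pr1 against Klf2 (TMM-scaled CPM, linear axes from 0) in the 32 Treg libraries, shaped by gate and coloured by status (blue, naive; red, cancer), with the naive CD44low Foxp3- library. The TSLPR+ libraries lie at the lower left and the TSLPR- libraries at the upper right with no overlap on either axis. The share of all genes without such overlap was not counted.

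The library of naive CD44low Foxp3- T cells shows these genes in CD4+ cells that are not Treg. It is 1 library, so there is no test, and the intervals given are exact 95% Poisson intervals for counting error only. It held 2 counts of Foxp3 and 0 of Il1rl1 (the floor of 3 counts is 0.428 CPM). Tcf7 was at 1645 CPM (1615 to 1675), 3.16 times the mean of the naive Treg libraries and above the highest Treg library (880.1 CPM). Lef1 at 997 CPM (973 to 1020.3), Satb1 at 1206 CPM (1181 to 1232), Ccr7 at 1539 CPM (1509.8 to 1568) and Bach2 at 129 CPM (121 to 138) also lay above every Treg library. The share of all genes for which this library lies above every Treg library was not counted, so this is description only. The exit genes stood otherwise. S1pr1 at 1028 CPM (1005 to 1052) was exceeded by 1 of 32 Treg libraries and S1pr4 at 94.3 CPM (87.3 to 102) by 4. Klf2 at 387 CPM (373 to 402) fell between the gates, below 15 of 16 TSLPR- and above 16 of 16 TSLPR+ libraries. Klf3 at 246 CPM (235 to 258) was below 28 of the 32 Treg libraries, and Foxo1 at 395 CPM (380.3 to 409.9) was exceeded by 2.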

How the data were processed

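The work started from the table of raw counts per Ensembl gene that the authors deposited, with 33 columns, each matched to 1 library of 58-base single reads. The submitters' processing notes list the build GRCm38 and the tools SAMtools 1.2, FastQC 0.11.3, Picard 1.134 and HTSeq 0.4.1; for the aligner, the annotation and the strand setting there is no entry (not given in the sources used here). Positions, symbols and exons come from GENCODE M21 and promoters from RefSeq.

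Counts of the 32 Treg libraries were fitted with edgeR 4.0.16 (R 4.3.3): TMM scaling, filterByExpr (minimum count 10, total 15, which all 10 genes passed), a group-means model, robust quasi-likelihood tests and Benjamini-Hochberg adjustment over all genes tested, with a limit of 0.05. Cancer and naive mice were also compared on the 4 gates summed per mouse. CPM use TMM-scaled totals. Alternatives used DESeq2 1.42.0, limma 3.58.1 and the settings in the closing section. On simulated counts the models recovered the changed genes they were tested with. The planted changes were larger than any difference of the 10 genes and held no mouse effect. That check therefore does not cover changes of the size reported here. The 10 genes and all gene lists were chosen with earlier results of these data known. Named are the 10 genes, the sort genes, up to 4 members with the smallest p per list, and the 5 genes most like Klf2 and S1pr1; other names were chosen after their values were seen, and 1 gene that the rule picks is not reported here. Gates of a mouse come from the same animal, which pairs them; deviations of libraries from their group means correlated at 0.00993 on average over 48 same-mouse pairs and at -0.00331 over 144 other pairs. Replicates are mice. Whether naive mice were mock treated, and sorting and sequencing days, are not stated in the labels.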

Additional observations from a re-analysis of the deposited data

Results flagged for a closer look

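Among 80 groups of 4 libraries tested (8 groups for each of the 10 genes), 3 held a library far from the others, and chance alone flags about 4. Tcf7 was at 770.5 CPM in naive mouse 3 of the TSLPR-ST2- gate, where the other 3 mice held 563 to 584 CPM. Bach2 was at 77.5 CPM in cancer mouse 6 of the TSLPR-ST2+ gate, against 55.4 to 56.5 CPM in the others. Bach2 was at 61.4 CPM in cancer mouse 5 of the TSLPR+ST2- gate, against 86.9 to 90.9 CPM in the others.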

How the results depend on the processing

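No direction of a called gene reversed under any setting tried. Of the 9 genes lower in TSLPR+ Treg, all stayed called under RLE size factors, DESeq2, thinned libraries, leaving out any mouse, dropping the low-count filter, the mitochondrial share as a covariate, the mouse as a block and the libraries of mice 5 and 7 left out. With the mouse as a replicate block in edgeR the counts of called members were 3 for ST2 and 9 for TSLPR, as without the block; the random-effect pairing in limma-voom called 10 for TSLPR, adding Bach2 (log2 -0.52, adjusted p = 0.0223), and 0 for cancer in TSLPR+ST2+ Treg.

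The 2 calls for cancer in TSLPR+ST2+ Treg changed in most settings: 1 call was left with RLE size factors, 1 without the 2 ST2+ libraries of mouse 5, 1 without the TSLPR+ST2+ library of mouse 7 (S1pr4 in place of S1pr1 and Foxo1), 0 with no low-count filter, 0 with the mitochondrial share as a covariate, 0 with only the 8 libraries of the gate, and 0 to 1 when each mouse was left out. For the sums per mouse DESeq2 called 1 gene and the mean of the 4 gate contrasts 2, against 0. That mean does not take the mouse as the replicate. The cause of these changes was not tested.

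Counts over all genes moved more. ST2 had 897 calls (459 to 783 with a mouse left out), TSLPR 1996 (1303 to 1939), the sums per mouse 186 (28 to 98, 1148 by DESeq2, 0 with the mitochondrial share), TSLPR-ST2- 31 (11 to 24, 128 by DESeq2), TSLPR-ST2+ 30 (4 to 37, 204 by DESeq2, 50 with the mitochondrial share), TSLPR+ST2- 7 (0 to 18, 87 by DESeq2), TSLPR+ST2+ 618 (171 to 749, 1196 by DESeq2, 358 with no filter, 4 with the mitochondrial share) and the single-positive gates 397 (207 to 527, 810 by DESeq2). With 4 mice per status and 200 cells per library, the standard errors printed set which differences within a gate could be resolved.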
